A study of Mus musculus with 8 samples.

Results

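Metallothioneins and antioxidant genes were followed in RNA of the whole mouse aortic tree: Mt1 and Mt2, the heme oxygenase gene Hmox1, the quinone reductase Nqo1, both subunits of glutamate-cysteine ligase (Gclc and Gclm), sulfiredoxin (Srxn1), cytosolic thioredoxin reductase (Txnrd1), the cystine transporter Slc7a11 and plasma glutathione peroxidase (Gpx3). The 10 genes were taken by symbol from 48587 in the count table, and all 10 were among the 16194 genes that passed the filter on low counts. The 8 libraries form 4 groups of 2: wild-type (WT) litter controls given vehicle, WT given vitamin D (VitD in the labels), mice labelled as a Tet2 knockout confined to vascular smooth muscle cells and given vehicle, and the same genotype given VitD. Groups are written as WT_vehicle, WT_VitD, Tet2KO_vehicle and Tet2KO_VitD after these labels. A Cre driver, the dose and length of treatment, and ages are not in the labels. They also do not state that a group's libraries are of different animals. The p-values therefore measure spread between these libraries only, and that spread may be technical.

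Metallothioneins are small cysteine-rich proteins that bind zinc and copper, and the metal-sensing factor MTF1 induces them through metal response elements. Glutathione and thioredoxin are the main thiol systems that reduce peroxides and disulfides, and many of their enzymes are targets of the factor NRF2 (Nfe2l2), which KEAP1 marks for destruction in unstressed cells. In the arterial wall, heme oxygenase and these systems are known to limit oxidant damage, and macrophages are a major site of heme oxygenase. The comparisons ask how these genes respond to VitD overload, a known way to calcify the arterial media, and whether the genotype alters that response.

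Library totals ran from 15679274 to 22332149 counts. Levels are in CPM, that is, counts divided by the TMM-scaled library size and brought to a common total. The smooth muscle markers Myh11, Acta2, Tagln, Cnn1, Smtn and Lmod1 were present in all libraries, with a summed level of 14974 to 29704 CPM. Tet2 did not bear out the genotype label. It stood at 42.0 and 35.2 CPM in Tet2KO_vehicle and 35.8 and 32.2 CPM in WT_vehicle, and at 26.6 and 37.6 CPM in Tet2KO_VitD and 18.3 and 20.04 CPM in WT_VitD. Within WT, Tet2 was itself lower under VitD (log2 -0.825, SE 0.213, edgeR adjusted p = 0.0305), as 9.47% of all genes were. Which exons were deleted is unknown here and other cells of the wall keep the gene, so the count is a weak check, and Tet2KO names the label throughout. Library names carry numbers in 2 ranges, which the labels do not call batches. Both WT_VitD libraries and Tet2KO_VitD 1 have numbers in the higher range, and the other 5 in the lower. The share of counts on ribosomal protein genes was 4.85% to 5.51% in the former 3 and 2.10% to 2.57% in the latter 5. Tet2KO_VitD 1 also stands apart in mt-Rnr2, a mitochondrial ribosomal RNA, with 99 counts beside 8664 to 22346 in the others. In WT, range and treatment cannot be told apart. Tet2KO_VitD 2 is the single VitD library that shares a range with the vehicle libraries.

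Promoter windows of 300 bases, from 250 before to 50 after the RefSeq start site (GRCm38.p6, the mm10 assembly), were found for 8 of the 10 genes. Hmox1 and Gclc are named only. The windows were searched on both strands for the cores of the metal response element (TGCACNC and TGCGCNC), an antioxidant response element (TGACNNNGC) and an AP-1 site (TGANTCA), all shown in capitals below, 5' to 3' on the plus strand. AP-1 and antioxidant response element matches can overlap. Mt1 and Mt2 are shown because they had large rises under VitD in WT, with Srxn1 as a thioredoxin pathway gene.
Mt1, chr8:94178839-94179138: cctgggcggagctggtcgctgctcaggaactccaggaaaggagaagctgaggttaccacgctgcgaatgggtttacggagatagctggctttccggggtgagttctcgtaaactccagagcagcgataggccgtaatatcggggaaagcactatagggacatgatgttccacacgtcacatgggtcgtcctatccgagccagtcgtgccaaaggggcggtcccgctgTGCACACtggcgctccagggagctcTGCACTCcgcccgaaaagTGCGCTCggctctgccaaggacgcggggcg
Mt2, chr8:94172368-94172667: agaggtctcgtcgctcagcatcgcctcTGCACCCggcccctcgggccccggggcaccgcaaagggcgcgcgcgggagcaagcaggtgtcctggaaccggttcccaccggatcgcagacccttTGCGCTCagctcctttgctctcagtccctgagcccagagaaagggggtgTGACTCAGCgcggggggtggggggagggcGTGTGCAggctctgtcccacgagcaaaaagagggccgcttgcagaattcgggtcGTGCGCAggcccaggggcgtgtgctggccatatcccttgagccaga
Srxn1, chr2:152105274-152105573: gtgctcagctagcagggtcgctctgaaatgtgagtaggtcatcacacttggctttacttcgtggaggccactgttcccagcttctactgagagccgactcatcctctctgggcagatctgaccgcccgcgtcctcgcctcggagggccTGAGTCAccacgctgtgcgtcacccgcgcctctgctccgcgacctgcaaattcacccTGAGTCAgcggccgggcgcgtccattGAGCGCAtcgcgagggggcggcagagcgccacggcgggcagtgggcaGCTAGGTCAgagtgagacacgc

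The Mt1 window holds 3 metal response element cores, a number reached in 1.97% of the 32851 windows of this length, and no antioxidant response element or AP-1 match. The Mt2 window holds 4 cores (at least 4 in 0.517% of windows) and 1 stretch, TGACTCAGC at position -79 from the start site, that matches both the antioxidant response element and the AP-1 letters. At least 1 antioxidant response element match is found in 12.4% of windows and at least 1 AP-1 match in 7.81%. The Srxn1 window has AP-1 matches at -102 and -45, found at least 2 times in 0.46% of windows, with 1 antioxidant response element match and 1 metal response element core. Gclm has 3 cores and 1 antioxidant response element match, and 1 of the 3 Txnrd1 windows has an antioxidant response element match. No match of any of these letters lies in the Nqo1, Slc7a11 or Gpx3 windows. The RefSeq start sites are not the sole ones, since GENCODE M21 lists Mt1 transcripts that begin 122 and 152 bases downstream of the site used here. The Mt2 transcripts listed there begin 46 and 242 bases downstream of the Mt2 site used, so neither begins at it. A match describes letters in a window and was not measured as binding.

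Under VitD in WT, 7 of the 10 genes rose, against 10.6% of all genes tested: Mt1, Mt2, Hmox1, Srxn1, Txnrd1, Slc7a11 and Gpx3. None fell, against 9.47% of all genes. Genes called in either direction made up 20.1% of those tested. The median log2 fold change of the 10 was 1.32, beside -0.028 over all genes tested. The 10 genes and the lists below were chosen with earlier results of these data known, so this count is a description. In 8 of the 10 both VitD libraries lay above both vehicle libraries, as in 33.8% of all genes, and in 2 both lay below, as in 35.3%. Calls are by edgeR's quasi-likelihood test at a Benjamini-Hochberg adjusted p under 0.05.

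**Figure D1:**
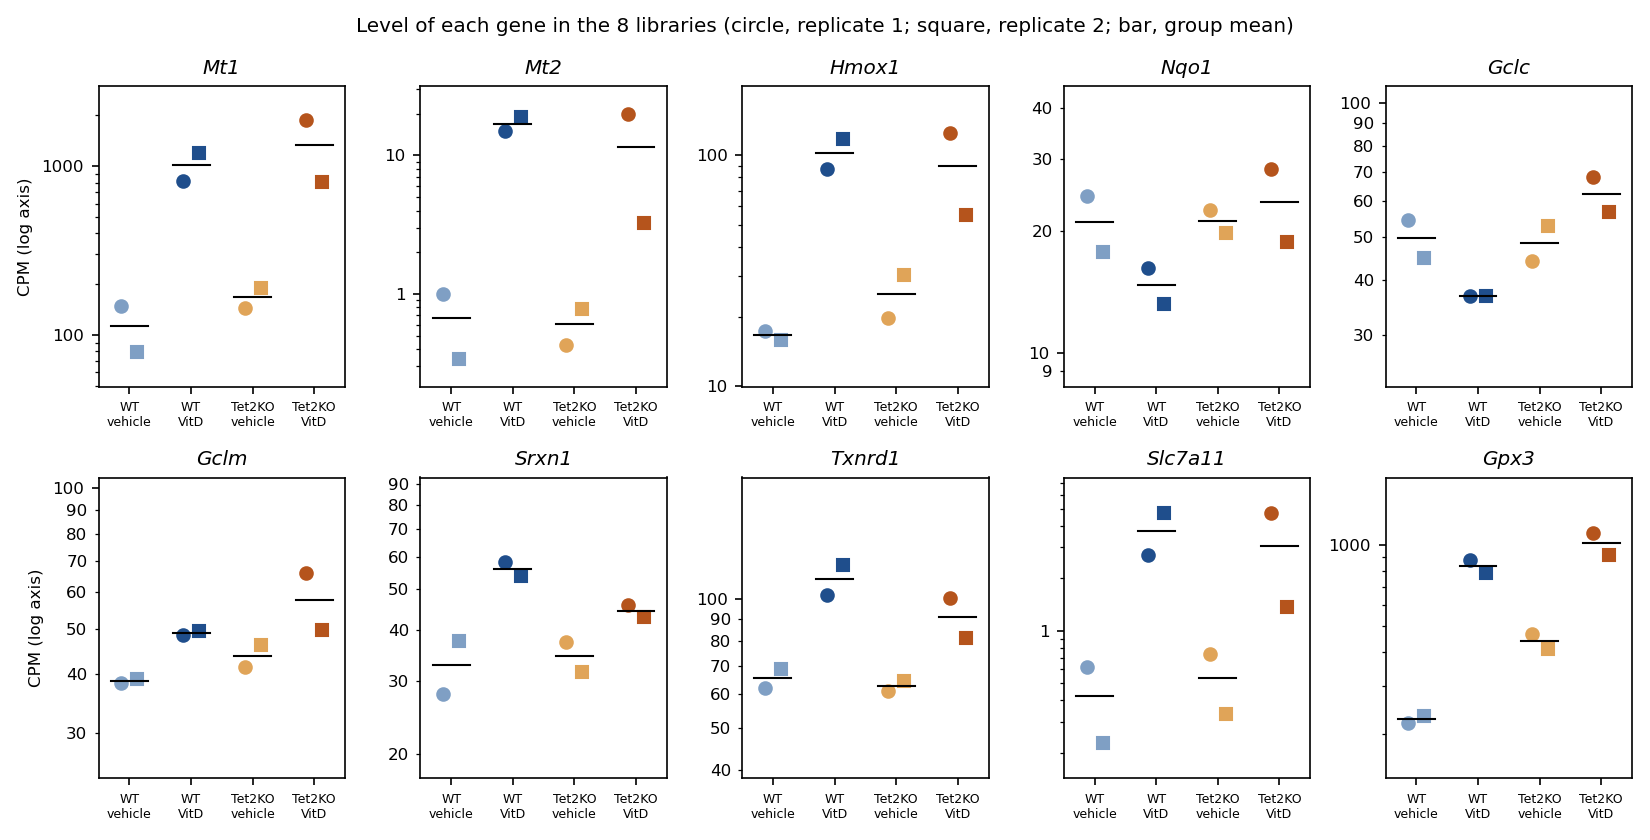
CPM on a log axis for each of the 10 genes in the 4 groups, where each point is a library (circle, replicate 1; square, replicate 2) and the bar is the group mean. Mt1, Mt2, Hmox1, Gclm, Srxn1, Txnrd1, Slc7a11 and Gpx3 stand higher in all 4 VitD libraries than in any vehicle library. Nqo1 and Gclc stand lowest in the WT_VitD libraries.

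Mt1 (chromosome 8, 94179082 to 94180327, plus strand, mm10) encodes the metallothionein with the higher count in these libraries. Its level was 148 and 79.0 CPM in the WT vehicle libraries and 818 and 1202 CPM in the WT_VitD libraries. Both treated libraries thus lay several times above both controls, and the log2 fold change was 3.15 (SE 0.468, 8.88-fold, adjusted p = 0.00722). Mt2 lies just upstream on the same strand (chromosome 8, 94172664 to 94173568), with 5513 bases between the genes. It was counted at 0.994 and 0.342 CPM under vehicle, from 16 and 6 reads, and at 15.03 and 18.8 CPM under VitD, from 227 and 333 reads. The groups did not overlap and the log2 fold change was 4.67 (SE 0.864, 25.4-fold, adjusted p = 0.0131), the largest of the 10 genes and the one with the largest SE.

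The level of Mt2 is uncertain. Per kilobase of annotated exon, Mt1 was 70.5 and 109 times as abundant as Mt2 in the WT vehicle libraries and 25.7 and 30.1 times as abundant in the WT_VitD libraries. In GENCODE M21 the antisense gene Gm45774 covers 432 of the 588 exonic bases of Mt2. The count table used here has no row of that name, and the sources used here do not give the strand setting or annotation of the deposited counting. Whether this overlap bears on the Mt2 count was not tested. Mt1 has no such overlap. Of the other family members, the brain-type Mt3 was not called, at a log2 of -0.03 (SE 0.728, adjusted p 0.977), and Mt4 had too few counts to test. The zinc-sensing inducer Mtf1 had -0.24 and the zinc exporter Slc30a1, another MTF1 target, -0.17, neither of them called. These 4 genes were picked from the metal handling list for their roles.

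Of 14 tested genes of that list 4 rose and none fell. For this count and those of the lists and markers below, 10.6% of all genes tested were called higher in WT and 9.47% lower. The zinc and manganese importer Slc39a8 stood at 6.34 and 4.73 CPM under vehicle and 12.97 and 27.6 CPM under VitD (log2 1.88, SE 0.425). Atox1, a copper chaperone, stood at 34.2 and 54.1 against 103 and 93.7 CPM (log2 1.16). The copper importer Slc31a1 (log2 0.73) and the zinc importer Slc39a1 (log2 0.65) rose less, and all 4 had non-overlapping groups.

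Hmox1 (chromosome 8, 75093621 to 75100589), the inducible enzyme that cleaves heme, was at 17.4 and 15.9 CPM in WT vehicle libraries and at 86.6 and 117 CPM in WT_VitD libraries. The replicates were close within each group relative to the distance between groups, at a log2 difference of 2.61 (SE 0.385, 6.12-fold, adjusted p = 0.00704). The constitutive isozyme Hmox2, named for its role, had a log2 of 0.52 and was not called, and the ratio of Hmox1 to Hmox2 in CPM went from 0.712 and 0.567 to 2.40 and 2.98. Among 19 heme and iron genes 7 rose and none fell. They include the hemoglobin scavenger receptor Cd163 (42.7 and 36.2 against 135 and 192 CPM), the hemoglobin carrier haptoglobin, Hp (113 and 217 against 1020 and 2229 CPM), the phagosomal metal transporter Slc11a1 (log2 1.15) and biliverdin reductase, Blvra (log2 1.10), the enzyme after heme oxygenase in heme breakdown.

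The 3 genes closest to Hmox1 over the 8 libraries, by the mean absolute difference of log2 deviations, were Lyz2 (0.114), Ncf1 (0.151) and Ctss (0.158), out of 9665 candidates. Lyz2 is macrophage lysozyme, Ncf1 a subunit of the phagocyte oxidase and Ctss a protease of macrophages. The same rule gave Ptgs2, Ctss and Ms4a6d for Mt1, at 0.261 to 0.328, and Sele, Vsig4 and Trem2 for Mt2, at 0.235 to 0.452. Sele is an endothelial adhesion molecule, and Vsig4 and Trem2 are receptors of macrophages.

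Macrophage markers moved with these rises. All 9 (Adgre1, Cd68, Csf1r, Cd14, Mrc1, C1qa, C1qb, Trem2, Lyz2) were called higher in WT under VitD. In Tet2KO 1 of the 9 was called higher under VitD, beside 0.179% of all genes. The summed level of the 9 was 539 to 563 CPM in WT_vehicle, 2410 to 2881 in WT_VitD, 709 to 850 in Tet2KO_vehicle and 1368 to 2447 in Tet2KO_VitD, with no marker at 0 in any library. Across the 8 libraries Hmox1 differed 7.81-fold from lowest to highest, and Hmox1 per 1000 CPM of macrophage markers ran from 27.9 to 50.7, a 1.82-fold range (2.39-fold without Lyz2 in the sum). The same range was 5.44-fold for Mt1 (7.23-fold without Lyz2), 13.4-fold for Mt2 (17.7-fold), 4.89-fold for Slc7a11 (6.34-fold), 3.57-fold for Srxn1 (2.82-fold), 2.96-fold for Txnrd1 (2.39-fold) and 2.47-fold for Gpx3 (2.20-fold). In CPM the range was 23.6-fold for Mt1, 58.0-fold for Mt2, 20.7-fold for Slc7a11 and 5.04-fold for Gpx3, each wider than per marker CPM. For Srxn1 and Txnrd1 the range in CPM was narrower, at 2.08-fold and 1.96-fold. So it was for Nqo1 (2.15-fold in CPM, 9.85-fold per marker CPM), Gclc (1.85-fold, 7.91-fold) and Gclm (1.72-fold, 4.14-fold). In bulk tissue, more cells of a type and more RNA per cell cannot be told apart, and the part of macrophages in these rises was not tested. Neutrophil markers, 7 in number with up to 2 at 0 in a library, summed to 4.44 to 9.70 CPM in WT_vehicle, 43.6 to 79.9 in WT_VitD, 9.55 to 14.2 in Tet2KO_vehicle and 18.4 to 31.4 in Tet2KO_VitD.

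**Figure D2:**
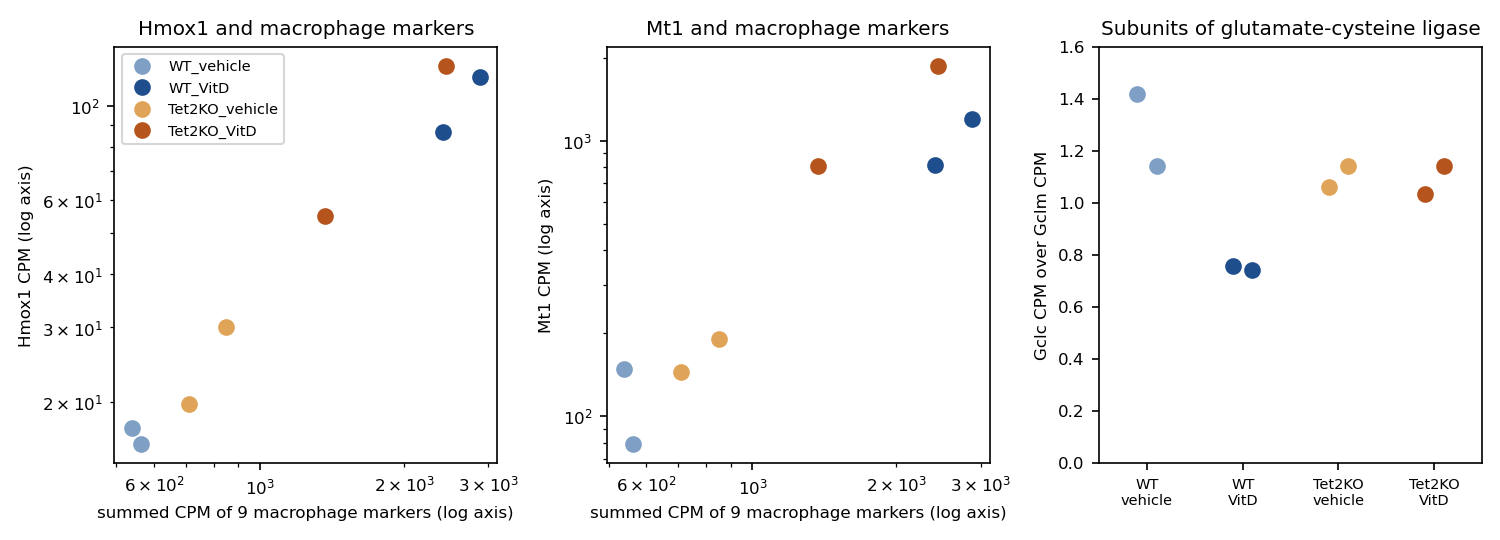
Left and middle, Hmox1 and Mt1 (CPM, log axis) against the summed CPM of 9 macrophage markers (log axis), with 1 point per library. Right, the ratio of Gclc to Gclm CPM by group, which is 0.758 and 0.744 in the WT_VitD libraries and at least 1.03 in the 6 others.

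The members that serve glutathione synthesis differed in sign, though Gclc and Gclm were not called. Slc7a11 (chromosome 3, 49892526 to 50443614, minus strand), the cystine importer that feeds glutathione synthesis, was counted at 10 and 4 reads under vehicle and 41 and 83 under VitD in WT, or 0.622 and 0.228 against 2.71 and 4.70 CPM. Its log2 fold change was 3.12 (SE 0.782, edgeR adjusted p = 0.028), so it rose from a level of few reads. Its heavy-chain partner Slc3a2, named for that role, rose from 71.8 and 75.5 to 138 and 139 CPM (log2 0.91, SE 0.194, adjusted p = 0.0187).

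Gclc (chromosome 9, 77754535 to 77794485), the catalytic subunit of the enzyme that commits cysteine to glutathione, was at 54.4 and 44.7 CPM under vehicle and 36.7 and 36.8 CPM under VitD in WT. Both treated libraries lay below both controls, but the log2 fold change of -0.43 (SE 0.186) was not called (adjusted p = 0.125). Gclm (chromosome 3, 122245557 to 122270732), the modifier subunit, went the other way, at 38.3 and 39.1 against 48.5 and 49.5 CPM (log2 0.34, SE 0.182, adjusted p = 0.205), again without a call. Of the 6291 exonic bases of Gclm, 296 are shared with Gm17494 on the other strand and 244 with the pseudogene Gm6061 on the same strand. Gm17494 had 1 to 9 counts per library and Gm6061 had 0 in all 8. Opposite signs put the ratio of Gclc to Gclm at 1.42 and 1.14 under vehicle and at 0.758 and 0.744 under VitD in WT. In the Tet2KO groups it was 1.06 and 1.14 under vehicle and 1.03 and 1.14 under VitD, so those groups overlap. The ratio itself was not tested.

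Gpx3 (chromosome 11, 54902453 to 54910377), a secreted selenium enzyme that reduces peroxides outside cells, had the smallest p of the 10 genes. It stood at 219 and 233 CPM in WT vehicle libraries and 878 and 784 CPM in WT_VitD libraries, with little spread in either group (log2 1.88, SE 0.215, 3.67-fold, adjusted p = 0.00302). It was the single one of the 10 genes still called without WT_VitD 2 (adjusted p = 0.0207). Per kilobase of exon it was at 432 to 484 CPM in WT_VitD libraries, below Mt1 at 656 to 965 and above Hmox1 at 49.5 to 66.9.

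Other glutathione genes mostly rose where they were called, with 11 of 27 higher and 1 lower. Glutaredoxin, Glrx, which removes glutathione from protein thiols, stood at 9.51 and 10.4 CPM under vehicle and 34.7 and 38.9 under VitD (log2 1.88, SE 0.268). Ggt5, an extracellular enzyme that splits glutathione conjugates, rose by 1.62 and the peroxidase Gpx7 by 1.20 on the log2 scale. The one that fell was the transferase Gstm1, at 419 and 405 against 196 and 106 CPM (log2 -1.45, SE 0.280, adjusted p = 0.0147). Reads of near-identical Gstm genes could be split between them, so its level is uncertain. Of 17 selenoprotein and selenium supply genes 4 rose and 2 fell. The deiodinase Dio2 (log2 2.03) and Selenoh (log2 1.57) rose, while Selenoo (log2 -0.82) and Secisbp2, a factor needed to read selenocysteine codons (log2 -0.86), fell.

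Nqo1 (chromosome 8, 107388225 to 107403206, minus strand), a quinone reductase and classic NRF2 target, was not among the genes that rose. It stood at 24.3 and 17.7 CPM in WT vehicle libraries and 16.2 and 13.2 CPM in WT_VitD libraries, the lowest values of the 4 groups. The log2 fold change was -0.52 (SE 0.265, adjusted p = 0.183). Among 17 genes of NADPH supply and quinone or carbonyl reduction 2 rose and 1 fell, where 20.1% of all genes tested were called. The aldo-keto reductase Akr1b8 went from 14.5 and 13.3 to 31.2 and 43.0 CPM (log2 1.42, SE 0.220) and isocitrate dehydrogenase, Idh1, rose by 0.80. Aldehyde oxidase, Aox1, fell from 54.9 and 61.9 to 29.9 and 25.8 CPM (log2 -1.07).

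Srxn1 (chromosome 2, 152105516 to 152111376), which repairs overoxidised peroxiredoxins, was at 28.0 and 37.6 CPM under vehicle and 58.2 and 53.9 under VitD in WT (log2 0.77, SE 0.193, adjusted p = 0.0277). Txnrd1 (chromosome 10, 82833951 to 82897712), the selenium enzyme that keeps cytosolic thioredoxin reduced, was at 62.2 and 68.5 against 102 and 120 CPM (log2 0.77, SE 0.180, adjusted p = 0.0235). Srxn1 was 1.71-fold and Txnrd1 1.70-fold higher with non-overlapping groups, beside 8.88-fold for Mt1 and 6.12-fold for Hmox1. Of 18 other thioredoxin and peroxiredoxin genes 4 rose: thioredoxin itself, Txn1 (log2 1.12), Prdx5 (1.03), Prdx1 (0.82) and Prdx2 (0.67). The thioredoxin-binding protein Txnip was the 1 gene that fell (log2 -0.71, adjusted p = 0.0466), named for that reason.

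Of 11 genes that control NRF2, 2 rose and none fell, where 20.1% of all genes tested were called. The small MAF protein Maff went from 24.6 and 24.9 to 124 and 105 CPM (log2 2.21, SE 0.460), and Dpp3, a KEAP1-binding peptidase, had a log2 of 0.78. Nfe2l2 itself had a log2 of -0.03 and Keap1 0.17, both uncalled and both named for their role after the values were seen. The superoxide dismutase, catalase and paraoxonase list had 0 of 7 called by edgeR, with 1 called by DESeq2 and 1 at an unadjusted p under 0.05. Its smallest p values were those of Pon2 (log2 0.62, adjusted p = 0.0684) and extracellular Sod3 (804 and 938 against 1203 and 1174 CPM, log2 0.45).

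Oxidant sources had 6 of 14 tested genes called higher and 1 lower. The higher ones are all subunits or partners of the phagocyte NADPH oxidase, known from macrophages and neutrophils, whose markers are given above: Cybb stood at 11.6 and 10.1 against 32.9 and 48.4 CPM (log2 1.91, SE 0.242), Ncf1 had a log2 of 2.27, Ncf4 1.80 and Rac2 1.58. Nox4 (520 and 330 against 325 and 189 CPM), Maob and Noxo1 lay lower without overlap, as 35.3% of all genes did. They are named after their values were seen. Of 14 ATF4 stress response genes, a list that holds Slc3a2 and 2 further genes of the lists above, 5 rose and 2 fell. Psat1 (log2 1.86), Ddit4 (1.75) and the amino acid transporter Slc7a5 (1.10) rose, and the lipoprotein receptor Vldlr fell from 164 and 137 to 59.2 and 44.0 CPM. Atf4, Ddit3 and Atf3 are named after their values were seen. Atf4 stood at 132 and 150 against 191 and 178 CPM, and Ddit3 lower under VitD, at 37.7 and 34.4 against 22.7 and 13.5 CPM. Atf3 overlapped, at 31.0 and 60.7 against 32.4 and 17.5 CPM. The glucocorticoid list, included since glucocorticoids induce metallothioneins, had 1 of 10 called: Hsd11b1, which regenerates active corticosteroid, at 26.2 and 30.7 against 56.8 and 61.5 CPM. DESeq2 called 2 genes of this list in WT and edgeR without the filter 4. The median log2 fold change of the list under VitD was 0.018 in WT and 0.65 in Tet2KO. In WT the uncalled genes were split, and those given here are named after their values were seen. Fkbp5 (82.8 and 34.9 against 153 and 215 CPM), Tsc22d3 and Sgk1 lay higher without overlap, as 33.8% of all genes did. Per1 and Nr3c1 (215 and 166 against 133 and 127 CPM) lay lower without overlap, as 35.3% did. Counting each gene once, 45 of 165 tested genes on the 11 lists rose and 8 fell, which is 32.1% called beside 20.1% of all genes.

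**Figure D3:**
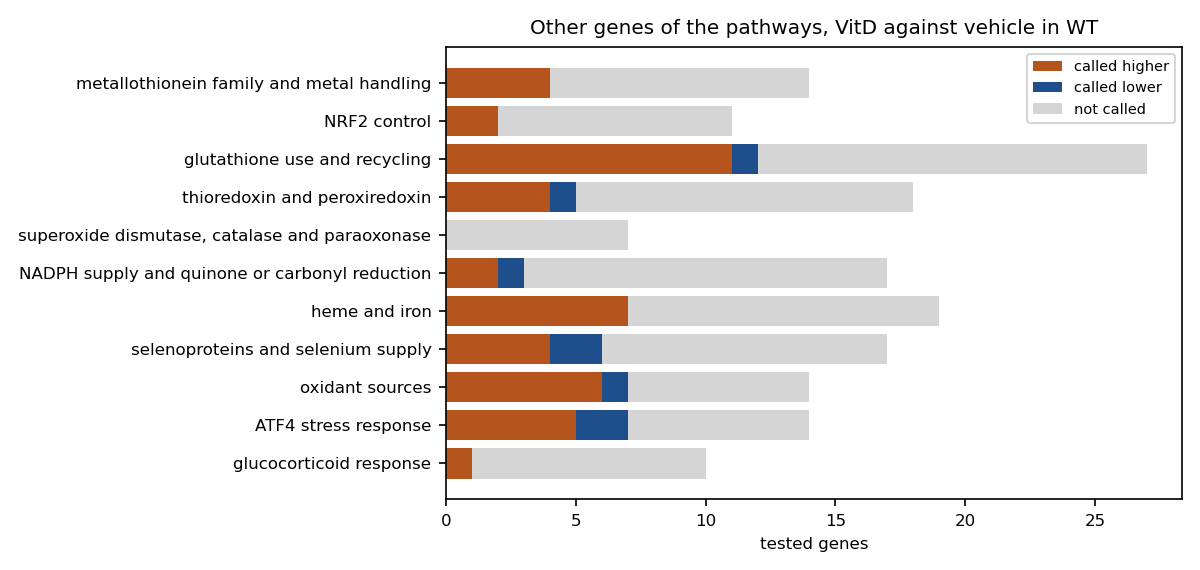
Number of tested genes on each of 11 lists that were called higher, called lower or not called for VitD against vehicle in WT. Glutathione use and recycling has the most calls (12 of 27) and the superoxide dismutase, catalase and paraoxonase list has none of 7.

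The WT calls rested on few libraries. When the number range entered as a covariate, none of the 10 genes was called (58 genes overall), and the log2 fold changes were 1.95 for Mt1, 2.07 for Mt2, 1.44 for Hmox1, 1.34 for Slc7a11 and 1.61 for Gpx3 (adjusted p from 0.0634 to 0.685). In that fit the range effect is estimated from the difference between Tet2KO_VitD 1 and Tet2KO_VitD 2 alone. It also left none of the 165 list genes called. Of the 10 genes, 2 were called without WT_vehicle 1, 3 without WT_vehicle 2, 4 without WT_VitD 1 and 1 without WT_VitD 2, beside 7 without any single Tet2KO library. List genes called numbered 4, 11, 22 and 2 without those WT libraries, 35 without either Tet2KO_vehicle library and 75 without either Tet2KO_VitD library. Mt1 was called without either WT vehicle library (adjusted p = 0.0447 and 0.0499) but not without WT_VitD 2 (0.0561), and Hmox1 only without WT_VitD 1 (0.0131) among the WT libraries. Short transcripts stood relatively higher in the WT_VitD libraries, where the rank correlation across genes of exonic length with the deviation of a library was -0.299 and -0.209. With that trend removed the 7 genes stayed called, and Mt1 had a log2 of 2.80 and Mt2 4.31. Calls on the lists then went from 12 to 7 for glutathione, from 5 to 2 for thioredoxin and peroxiredoxin, from 6 to 2 for selenoproteins and from 0 to 1 for superoxide dismutase, catalase and paraoxonase. The other 7 lists stayed within 1.5 times their count.

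**Figure D4:**
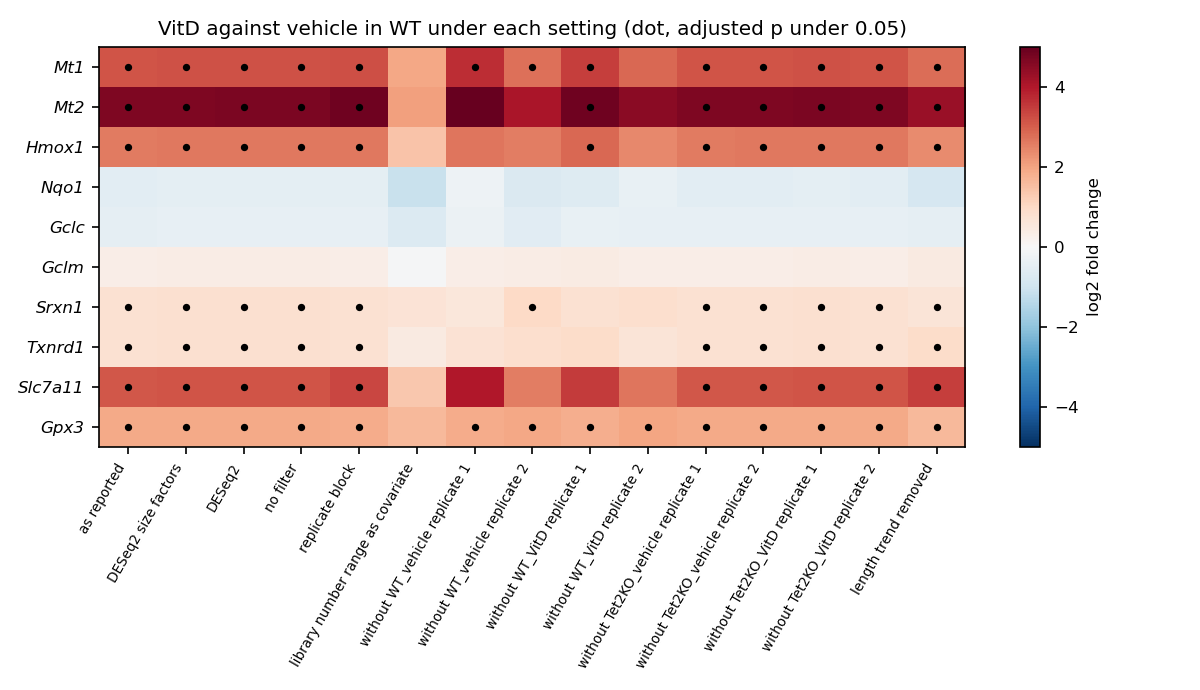
Log2 fold change of VitD against vehicle in WT for each gene (rows) under the reported analysis and 14 alternatives (columns), with a dot where the adjusted p is under 0.05. In the column with the number range as covariate no gene has a dot, and without WT_VitD replicate 2 Gpx3 alone has one.

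In Tet2KO the log2 fold change under VitD was positive for all 10 genes and none was called, against 0.198% of all genes in either direction, 0.179% higher and 0.0185% lower. At an unadjusted p under 0.05, 6 of the 10 passed, beside 2148 of the 16194 genes tested. DESeq2 called 4 (Mt1, Mt2, Hmox1 and Gpx3). In 9 of the 10 both VitD libraries lay above both vehicle libraries, as in 23.7% of all genes, and Nqo1 overlapped. The median log2 fold change was 0.87 beside -0.0051 over all genes.

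Mt1 stood at 145 and 190 CPM in Tet2KO_vehicle and at 1865 and 811 CPM in Tet2KO_VitD (log2 2.997, SE 0.465, adjusted p = 0.0524). Mt2 stood at 0.430 and 0.782 against 19.8 and 3.26 CPM (log2 4.21, SE 0.861, adjusted p = 0.101), so its treated libraries differed 6.09-fold from each other. Hmox1 was at 19.8 and 30.2 CPM under vehicle and 124 and 54.9 under VitD (log2 1.84, SE 0.372, adjusted p = 0.0999). Tet2KO_VitD 1 was above Tet2KO_VitD 2 by 2.30-fold in Mt1 and 2.26-fold in Hmox1 as well. Tet2KO_VitD 2, from the lower number range, still lay above both vehicle libraries in these 3 genes. Slc7a11 showed the same order, at 0.736 and 0.335 against 4.72 and 1.36 CPM.

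Gpx3 stood at 469 and 413 CPM under vehicle and 1105 and 919 CPM under VitD (log2 1.20, SE 0.211, adjusted p = 0.0764), with treated libraries 1.20-fold apart. Txnrd1 was at 61.2 and 64.3 against 101 and 81.2 CPM (log2 0.53) and Srxn1 at 37.3 and 31.7 against 45.9 and 43.0 CPM (log2 0.37). Gclc, at 44.1 and 52.8 against 68.1 and 56.8 CPM (log2 0.37), and Gclm, at 41.4 and 46.2 against 65.9 and 49.7 CPM (log2 0.40), had the same sign here. Nqo1 stood at 22.5 and 19.8 against 28.4 and 18.7 CPM (log2 0.16).

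Leaving out Tet2KO_VitD 2 gave 6 calls among the 10 genes (1898 genes overall), namely Mt1, Mt2, Hmox1, Slc7a11, Txnrd1 and Gpx3, with a log2 of 3.48 for Mt1 and 5.002 for Mt2. Leaving out Tet2KO_VitD 1, so that the remaining libraries of the comparison share a number range, gave no call, with 2.28 for Mt1 (adjusted p = 0.0917), 2.41 for Mt2, 1.15 for Hmox1 and 1.07 for Gpx3 (adjusted p = 0.110). The lone library is then assumed to vary like the other groups. Macrophage markers were lower in Tet2KO_VitD 2 (1368 CPM) than in Tet2KO_VitD 1 (2447 CPM), and their part in these differences was not tested. None of the 165 list genes was called, and the smallest p was that of Hsd11b1 (log2 1.32, adjusted p = 0.0518).

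**Figure D5:**
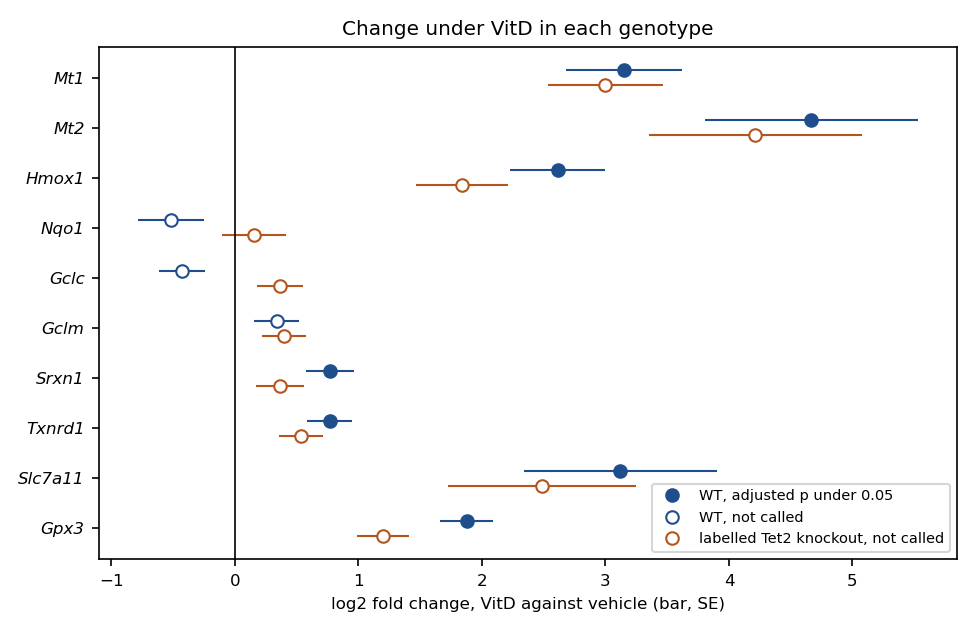
Log2 fold change of VitD against vehicle for the 10 genes in WT (blue) and in Tet2KO (orange), with bars for the SE and filled points for an adjusted p under 0.05. Nqo1 and Gclc are below 0 in WT and above 0 in Tet2KO, and the filled points are 7 in WT and 0 in the other genotype.

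The difference between the responses was tested as an interaction. None of the 10 genes was called by edgeR, against 0% of all genes, and none by DESeq2, which called 18 genes in all. By edgeR, 2 of the 10 had an unadjusted p under 0.05 beside 1006 of all genes. Those were Gclc (log2 0.80, SE 0.262) and Gpx3 (log2 -0.68, SE 0.294), each with an edgeR adjusted p of 0.794. For Mt1 the difference was -0.15 (SE 0.610), for Mt2 -0.45 (SE 1.22) and for Hmox1 -0.77 (SE 0.515), so with 2 libraries a group a difference of 1 log2 unit in the metallothioneins lies within 2 SE of 0.

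Under vehicle the genotypes differed in none of the 10 genes by edgeR, against 0% of all genes, with 1 of the 10 at an unadjusted p under 0.05 beside 481 of all genes. That gene was Gpx3, at 469 and 413 CPM in Tet2KO_vehicle and 219 and 233 CPM in WT_vehicle (log2 0.96, SE 0.210, edgeR adjusted p = 1). The groups did not overlap, and DESeq2 called it (adjusted p = 0.00992), as did edgeR without the filter on low counts (0.0387). Over the other alternatives its adjusted p was between 0.465 and 1, and its log2 was between 0.87 and 1.05 in all of them. Hmox1 and Gclm were also higher without overlap (log2 0.59 and 0.18), as 14.3% of all genes were, and the other 7 genes overlapped.

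Under VitD none of the 10 differed between genotypes by edgeR or DESeq2, against 0% of all genes by edgeR, and 2 had an unadjusted p under 0.05 beside 1719 of all genes. Gclc was at 68.1 and 56.8 CPM in Tet2KO_VitD and 36.7 and 36.8 CPM in WT_VitD (log2 0.76, SE 0.186, edgeR adjusted p = 0.457). Nqo1 was at 28.4 and 18.7 against 16.2 and 13.2 CPM (log2 0.68, SE 0.264, adjusted p = 0.467). Gclm and Gpx3 were also higher without overlap, making 4 of 10 (22.2% of all genes), and Srxn1 and Txnrd1 were lower without overlap (21.6% of all genes). Without Tet2KO_VitD 1, Mt2 was called lower (log2 -2.39, adjusted p = 0.0448). That comparison sets a library of the lower number range against WT_VitD libraries of the higher one.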

How the data were processed

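Raw counts of reads for each gene symbol, as the authors deposited them, cover 8 libraries of poly-A enriched, stranded RNA. Per the submitters' processing notes, reads were handled with Trimmomatic 0.39, STAR 2.7.8a and featureCounts 2.0.2 on mm10. The sources used here give neither the strand setting nor the annotation. Groups and replicate numbers come from the sample titles. Counts were fitted with edgeR 4.0.16 in R 4.3.3: filterByExpr (16194 of 48587 genes kept), TMM scaling, 1 mean per group over all 8 libraries (4 residual degrees of freedom), quasi-likelihood F tests of 5 contrasts and Benjamini-Hochberg adjustment over all genes tested, with a threshold of 0.05. The SE is the absolute log2 fold change over the square root of F. Levels are TMM-scaled CPM. Log2 levels for nearest genes used CPM plus 0.5, a mean of 10 CPM or more and no predicted genes. Exonic lengths and loci are from GENCODE M21, and promoters are from RefSeq. The procedure was also run on counts simulated with the fitted spread and with changes set in WT_VitD alone. No effect of the library number range was simulated, so that run does not bear on the range.

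The members and the 11 pathway lists were chosen with earlier results of these data known. The 10 members were always named, as were up to 4 called genes of each list by smallest p in WT, or 2 where none was called, and exceptions are said to be so. Older symbols in the table were matched through RefSeq synonyms. Alternatives were DESeq2 size factors, DESeq2 1.42.0, no filter, a block on the replicate number, a covariate for the range of library numbers, leaving out each library and, added after seeing the data, removal of the trend with exonic length. Markers of 12 cell types were measured, and those for which the report gives no value are in the closing section.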

Additional observations from a re-analysis of the deposited data

Results flagged for a closer look

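Gclc was singled out because its 2 VitD libraries lay below both vehicle libraries in WT and above both in Tet2KO. Taken singly, the former held in 35.3% of all genes tested and the latter in 23.7%. The share of all genes with both was not counted, so how unusual Gclc is was not tested. It was at 54.4 and 44.7 against 36.7 and 36.8 CPM in WT, and at 44.1 and 52.8 against 68.1 and 56.8 CPM in the other genotype. The difference was tested as an interaction, with a log2 of 0.80 (SE 0.262), and was not called by edgeR (adjusted p = 0.794). Over the alternatives this log2 lay between 0.64 and 0.93 with adjusted p of at least 0.246. Both WT_VitD libraries come from the higher library number range, as does 1 of the 2 Tet2KO_VitD libraries. Tet2KO_VitD 2, from the range of the vehicle libraries, stood at 56.8 CPM.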

How the results depend on the processing

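With 2 libraries a group, calls depended on the alternative more than directions did. The 7 calls among the 10 genes in WT held with DESeq2 size factors, DESeq2, no filter, the replicate block and length trend removal, and numbered 0 with a covariate for the number range and 1 to 7 without single libraries. In Tet2KO the 0 calls became 4 by DESeq2, 5 without a filter and 0 to 6 without single libraries. Genotype under vehicle had 1 call by DESeq2 or without a filter, and genotype under VitD 0 to 1 without single libraries. Genes called among all tested, 3251 in WT, were 58 with the range and 140 to 4946 without single libraries. The 32 called in Tet2KO became 461 by DESeq2, 1225 without a filter, 20 with the range, 17 with the length trend removed and 0 to 1898 without single libraries. From 0, genotype under vehicle became 18 by DESeq2 and 164 without a filter. Genotype under VitD became 96, 610, 16 with the range and 0 to 674 without single libraries. The interaction became 18 by DESeq2, 403 without a filter, 7 with the range and 0 to 37 without single libraries. DESeq2 and the unfiltered fit also test other genes than the reported fit. The cause of these differences was not tested.

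Signs turned only for uncalled values. With the range as a covariate they were -0.070 for Gclm in WT and -0.17 for Nqo1 in Tet2KO, 0.29 for Hmox1, 0.23 for Mt2 and 0.34 for Slc7a11 in genotype under VitD, and 0.33 for Mt1, 0.33 for Mt2 and 0.011 for Slc7a11 in the interaction. With the length trend removed the interaction was 0.0074 for Mt1 and -0.013 for Gclm. Without single libraries the range was -0.16 to 0.43 for Nqo1 under VitD in Tet2KO. For genotype under vehicle it was -0.70 to 0.83 for Mt2, -0.20 to 0.26 for Nqo1, -0.17 to 0.12 for Gclc, -0.12 to 0.30 for Srxn1, -0.12 to 0.016 for Txnrd1 and -0.32 to 1.20 for Slc7a11. For genotype under VitD it was -0.33 to 0.88 for Mt1, -2.39 to 0.22 for Mt2, -0.91 to 0.28 for Hmox1 and -1.46 to 0.34 for Slc7a11. For the interaction it was -0.89 to 0.32 for Mt1, -2.28 to 0.33 for Mt2, -0.17 to 0.25 for Gclm and -1.79 to 0.019 for Slc7a11.

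Whether replicate numbers pair libraries is not stated in the labels, and same-numbered deviations correlated at -0.161 to 0.157 between groups, so the numbers were not taken as pairs. With the replicate number as a block 7 of the 10 genes were called in WT and 0 in the other contrasts, 2474 genes were called in WT and 24 in Tet2KO, list genes called went from 53 to 39, and Mt2 in genotype under vehicle turned to 0.031. Low depth limits Mt2 and Slc7a11 under vehicle, with 4 to 16 reads per library.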

Other observations

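Other marker lists were measured beside these genes. Of all genes tested, 10.6% were called higher under VitD in WT and 9.47% lower. Skeletal muscle markers (Acta1, Ckm, Myh4, Atp2a1, Myh1, Tnnt3) had 6 of 6 called higher under VitD in WT, with a summed level of 26.3 and 31.0 CPM in WT_vehicle and 96.2 and 419 CPM in WT_VitD. Mesothelial markers had 4 of 5 called higher, and of 6 fibroblast markers 1 was higher. Smooth muscle markers had 2 of 6 called lower, and T cell and thymocyte markers 2 of 6. The T cell and thymocyte markers summed to 91.2 and 4.44 CPM in WT_vehicle and 5.49 and 4.25 CPM in WT_VitD. WT_vehicle 2 thus lay between the treated libraries, and the fall rests on WT_vehicle 1. No endothelial (6 tested), adipocyte (6), erythroid (5) or hepatocyte (5) marker was called by edgeR in WT, and 1 of 2 tested kidney tubule markers was higher. The endothelial markers still summed to more under VitD in WT, at 1505 and 1370 CPM in WT_vehicle and 2796 and 2390 CPM in WT_VitD. Their median log2 fold change was 0.84. Several lists differed between Tet2KO_VitD 1 and Tet2KO_VitD 2, the pair in which Mt2 stood at 19.8 and 3.26 CPM. Endothelial markers summed to 4412 and 1303 CPM, hepatocyte markers to 94.7 and 1.98 CPM, erythroid markers to 313 and 83.3 CPM and adipocyte markers to 874 and 2713 CPM. The part of any of these cells in the values of the 10 genes was not tested.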
